A study of Mus musculus with 46 samples.

Results

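The genes described here are 33 genes that mark endothelial cells of the liver, out of 55416 genes counted in whole mouse liver by RNA sequencing of 46 libraries. They were chosen by symbol as known markers of the cell type, by a rule that uses no measured value but was set with earlier results of these data known: 14 genes of the sinusoidal endothelium, 16 genes that most blood vessel endothelium uses, and 3 genes for secreted signals of liver endothelium. Lyve1, Stab1, Stab2, Clec4g, Fcgr2b, Mrc1, Gpr182, Oit3, Dnase1l3, Ehd3, Aqp1, Flt4, Gata4 and Maf made up the sinusoidal group. Kdr, Flt1, Tek, Tie1, Eng, Pecam1, Cdh5, Esam, Ptprb, Robo4, Emcn, Egfl7, Erg, Sox18, Vwf and Nos3 made up the vascular group, and Wnt2, Wnt9b and Rspo3 the secreted signals.

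The study compared livers of male mice lacking Plvap in hepatic stellate cells with livers of littermate controls, and livers of whole-body Cav1 knockouts with those of wild-type mice. The Plvap line (C57BL/6JBomTac, Plvaptm1.1Salm-Tg(Lrat-cre)1Rshw) carries a Cre driven from Lrat, a gene of stellate cells, so that the deletion was directed at those cells and not at the endothelium. It was studied on chow after a 12 h fast (6 controls, 5 knockouts), on chow after a 10 h fast and 2 h of refeeding (4 and 4), after 6 weeks of western diet with fructose water and a 12 h fast (5 controls, 4 knockouts), and after 6 weeks of high-fat diet and a 12 h fast (5 and 5). The Cav1 knockouts (STOCK Cav1tm1Mls/J, 4 mice) and C57BL/6N wild-type mice (4) were fasted for 6 h; they were not littermates by the labels, so strain and genotype cannot be told apart. The ages of the mice are not given in the labels used here, and each library is taken as 1 liver, so that p-values measure the spread between these libraries.

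Sinusoidal endothelial cells line the capillaries of the liver. They have open pores and no ordinary basement membrane, clear waste and immune complexes from blood through scavenger receptors, and send WNT and R-spondin signals to the hepatocytes around the central vein. The receptors for VEGF and angiopoietins keep them alive and quiet, and the transcription factors GATA4 and MAF hold their sinusoidal identity. Plvap itself encodes the protein of the thin diaphragms that span endothelial pores and caveolae, while caveolae, small pits of the cell membrane, are coated chiefly by the product of Cav1. Because whole liver was sequenced, fewer endothelial cells and less RNA per cell cannot be told apart in any value below. Of the 33 genes, Mrc1, Stab1, Fcgr2b, Maf, Gata4 and Aqp1 are also known from Kupffer cells, stellate cells, hepatocytes or bile ducts. That list is not complete, and the cell type behind a value was not tested.

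Library totals ran from 6656342 to 23311539 counts. Every one of the 33 genes had counts in every library, the lowest being 8 counts of Wnt9b, and all 33 passed the filter on low counts in each comparison. Levels are given as CPM, the count scaled to the size of the library, after scaling all 46 libraries together, and differences as log2 fold changes with their standard error (SE) from edgeR's quasi-likelihood test, with Benjamini-Hochberg adjustment over all genes tested; a gene is said to rise or fall where the adjusted p was under 0.05. In the libraries of the Plvap line, Plvap fell from 29.0 ± 4.91 to 5.8 ± 1.03 CPM (SD, n = 6 and 5) in fasted livers, from 29.4 to 5.23 in refed livers, from 30.6 to 5.78 on western diet and from 29.6 to 7.5 on high-fat diet, with no control library as low as any knockout library. Cav1 fell from 4.66 ± 0.91 to 0.769 ± 0.49 CPM (SD, n = 4 and 4) in the Cav1 knockouts (log2 fold change -2.62, SE 0.35, adjusted p = 0.0015), while Plvap stood at 43.8 and 42.2 CPM there. Some libraries held a place at the edge of their group for many of the 33 genes: refed Plvap knockout C and Cav1 knockout B were each the lowest of their group for 25 genes, and high-fat diet Plvap knockout E was the highest of its group for 18.

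Scaled to exon length, the 33 genes spanned a wide range of levels. Aqp1, a water channel, had the highest level at 34.1 ± 5.94 CPM per kilobase (SD, n = 46) and ranked first in all 10 groups. Clec4g, a C-type lectin of sinusoidal endothelium, followed at 21.1 ± 4.76 CPM per kilobase, and Eng, a co-receptor for BMP9 and TGF-beta, at 11.3 ± 2.49. From Eng downwards the order is loose: of 32 neighbouring pairs, 30 differed by less than the larger of their SDs, and only Aqp1 from Clec4g and Clec4g from Eng by more. At the low end, Emcn (a sialomucin of capillaries and veins) stood at 0.486, Vwf (von Willebrand factor, scarce in sinusoids) at 0.342 and Wnt9b at 0.336 CPM per kilobase.

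By role, the scavenger receptors ran from Clec4g down to Stab1 (3.08 CPM per kilobase) and the other sinusoidal genes from Aqp1 to Gpr182 (4.54), a chemokine scavenger. Among the growth factor receptors Eng was highest and the VEGF receptor Flt1 lowest (0.586), and among the junction and surface genes Egfl7 (7.98), a secreted vessel protein, and Emcn held those places. Of the transcription factors Maf was highest at 6.39 and Erg lowest at 1.01 CPM per kilobase, and of the secreted signals Wnt2 was highest at 2.81. Lyve1, a hyaluronan receptor, varied most between groups, with group means from 1.37 CPM per kilobase in Cav1 knockouts to 7.68 in fasted Plvap knockouts, a ratio of 5.62. Flt4 (VEGF receptor 3) followed with a ratio of 4.49 and Nos3 (endothelial nitric oxide synthase) with 3.68. Gpr182 and Esam, a junction protein, varied least, with ratios of 1.38 and 1.41.

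**Figure D1:**
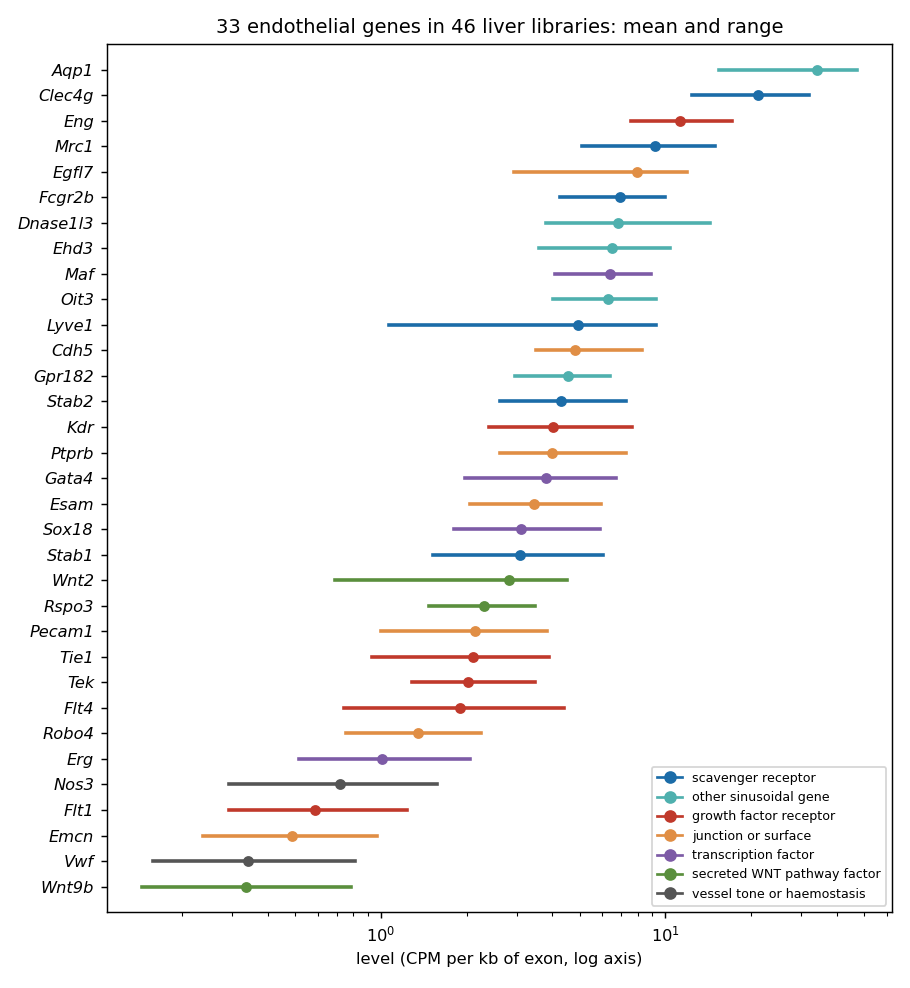
Mean level of each of the 33 genes in CPM per kilobase of exon (log axis) over 46 libraries, with a bar from the lowest to the highest library and colours for the genes' roles. Aqp1 (34.1) and Clec4g (21.1) lead, and Vwf (0.342) and Wnt9b (0.336) are lowest.

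The promoters of Clec4g, Flt1, Tie1 and Mrc1, which are some of the genes that differed in the comparisons that follow, are shown here for orientation. Clec4g and Mrc1 are scavenger receptors, Flt1 and Tie1 growth factor receptors. RefSeq windows of 300 bases (250 before and 50 after the start, build GRCm38.p6, gene strand) were at hand for 19 of the 33 genes; the windows lie at chr8:3720602-3720901 (minus strand) for Clec4g, chr5:147725962-147726261 (minus) for Flt1, chr4:118489800-118490099 (minus) for Tie1 and chr2:14229164-14229463 (plus) for Mrc1. Capitals mark AGGAAG, a form of the site bound by ETS factors such as ERG, or its reverse complement CTTCCT. Other forms of that site were not searched.
Clec4g: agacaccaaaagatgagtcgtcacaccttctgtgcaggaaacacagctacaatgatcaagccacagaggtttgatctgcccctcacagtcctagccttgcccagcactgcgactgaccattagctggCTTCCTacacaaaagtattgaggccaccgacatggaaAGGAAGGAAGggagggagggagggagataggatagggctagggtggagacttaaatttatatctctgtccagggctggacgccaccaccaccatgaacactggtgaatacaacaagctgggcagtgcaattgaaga
Flt1: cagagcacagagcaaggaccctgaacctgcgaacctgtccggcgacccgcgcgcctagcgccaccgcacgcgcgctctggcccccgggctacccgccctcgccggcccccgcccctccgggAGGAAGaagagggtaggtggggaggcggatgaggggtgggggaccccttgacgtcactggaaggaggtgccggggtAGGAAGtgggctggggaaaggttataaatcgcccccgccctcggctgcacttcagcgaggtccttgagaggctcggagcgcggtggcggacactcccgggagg
Tie1: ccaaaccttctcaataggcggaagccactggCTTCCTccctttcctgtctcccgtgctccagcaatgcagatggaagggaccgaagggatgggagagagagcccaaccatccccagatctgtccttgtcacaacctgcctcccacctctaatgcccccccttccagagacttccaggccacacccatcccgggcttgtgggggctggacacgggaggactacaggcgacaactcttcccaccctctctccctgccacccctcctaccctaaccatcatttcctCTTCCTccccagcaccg
Mrc1: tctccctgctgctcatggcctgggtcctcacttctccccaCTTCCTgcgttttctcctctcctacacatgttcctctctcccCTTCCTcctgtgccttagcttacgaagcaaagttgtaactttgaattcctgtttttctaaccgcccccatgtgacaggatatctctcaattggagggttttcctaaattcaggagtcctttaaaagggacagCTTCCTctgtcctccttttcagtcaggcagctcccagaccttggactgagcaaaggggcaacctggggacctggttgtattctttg
Clec4g and Mrc1 hold 3 matches each, those of Clec4g including a pair that overlaps, and Flt1 and Tie1 hold 2 each. Searched on both strands, AGGAAG was present in 13 of the 19 genes, against 38.4% of all 27025 genes with windows of the same length. Kdr and Fcgr2b, which also differed in the comparisons that follow, were among the 6 genes without it. Lyve1 and Ptprb, the genes called for the Plvap knockout in fasted livers, had no window. The GATA motif AGATAA (reverse complement TTATCT) was present in 2 of the 19, Tek and Erg, against 12.7% of all genes. A match describes letters in a window and shows no binding.

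In fasted chow-fed livers lacking Plvap in stellate cells, 1 of the 33 endothelial genes was higher and 1 lower. They amount to 6.06% of the 33, beside 2.25% of all 12840 genes tested, and the median log2 fold change was -0.02, beside -0.01 over all genes. The gene that rose was Lyve1 and the one that fell was Ptprb, the endothelial phosphatase VE-PTP that holds the angiopoietin receptor TEK in check. No member of the other roles passed the test. Before adjustment, p was under 0.05 for 5 of the 33, beside 2262 of the 12840 genes.

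Lyve1 lay at 8.0, 15 and 18.5 CPM (lowest, median and highest) in the 6 fasted controls and at 21.9, 22.3, 21.7, 24.3 and 21.9 CPM in the 5 knockouts. The groups did not overlap, and the knockouts were the tighter of the 2 groups. The log2 fold change was 0.64 (SE 0.15, adjusted p = 0.0347). Lyve1 is encoded on chr7:110449814-110462446 (GRCm39, minus strand), and besides sinusoids it marks lymphatic vessels and some macrophages. None of the 6 lymphatic endothelium markers that could be tested passed. Their summed level, with Pdpn, was 103 to 179 CPM in controls and 106 to 160 CPM in knockouts. That list shares Reln with the stellate cell markers, so its sum is not a level of lymphatic vessels alone. Pdpn, a defining marker, stood at 0.291 and 0.218 CPM, and the part of lymphatic vessels in the result was not tested. The 18 Kupffer cell markers summed to 1110 to 1450 CPM in controls and 1350 to 1690 CPM in knockouts, none of them called and none at 0, and their part in the result was not tested. The summed level of 10 hepatocyte markers was 60000 to 73400 CPM in controls and 95000 to 118000 CPM in knockouts. Alb alone among the 10 was called and rose by 0.96 (SE 0.12, adjusted p = 0.000582), while the median of the list was 0.3. The part of the hepatocyte markers in the result was not tested. The call for Lyve1 was lost when any of controls B, C and E or knockouts A, B, D and E was left out, with adjusted p from 0.0529 to 0.0798 and log2 fold changes from 0.61 to 0.67.

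The same direction was seen for Lyve1 in the other states of the line, without a call in any of them alone. Refed controls had 14.8, 20, 12.8 and 14.0 CPM and refed knockouts 25.2, 23.8, 12.9 and 19.1 CPM, so the groups overlapped (log2 fold change 0.40, SE 0.21, adjusted p = 0.683). On western diet, controls had 16.0, 9.66, 11, 10.3 and 7.26 CPM and knockouts 16.0, 22.2, 20 and 16.8 CPM, meeting at 16.0 without crossing (0.78, SE 0.22, adjusted p = 0.314). On high-fat diet, controls were narrow at 10.2, 11.9, 11.6, 10.9 and 9.99 CPM and knockouts wide at 10.9, 14.7, 15, 17.1 and 27.1 CPM (0.64, SE 0.21, adjusted p = 0.171). Fitted as the mean of the 4 states over 38 libraries, Lyve1 was 0.62 higher (SE 0.10, adjusted p = 0.000218), and it was called in that fit under each of 46 alternatives, with values from 0.56 to 0.66. It was the only one of the 33 genes called there (3.03% of them, beside 5.58% of all genes), with a median over the 33 of 0.04; Rspo3 joined it without fasted control A, refed control B or refed knockout C. In the same fit 4 of 10 hepatocyte markers rose and none fell. Their summed level was higher without overlap in knockouts of each state: 102000 to 107000 CPM beside 65700 to 77300 in refed livers, 73800 to 95700 beside 54500 to 71300 on western diet, and 83400 to 112000 beside 52600 to 58400 on high-fat diet. Tested within each state, 0 of the 10 were called in refed livers (median 0.17) and 0 on western diet (median 0.1). On high-fat diet 2 rose and none fell (median 0.26). The part of the hepatocyte markers in the value for Lyve1 was not tested. The Plvap effect on Lyve1 was not shown to differ between states: the difference was -0.24 between refed and fasted livers, 0.14 between western diet and chow and -0.01 between high-fat diet and chow, none called.

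Ptprb went the other way in fasted livers. Its level was 46.5, 56.9 and 65 CPM (lowest, median and highest) in the 6 controls and 41.8, 45.2, 46.1, 39.5 and 42.6 CPM in the knockouts. Every knockout lay below every control, by a narrow margin at the edge. The log2 fold change was -0.40 (SE 0.09, adjusted p = 0.0288), and leaving out any of controls A, B and C or knockouts A, B, D and E brought the adjusted p to between 0.0585 and 0.0758. Ptprb has 13333 bases of exon, and fold changes in this comparison correlated with exon length across 12840 genes (Spearman's rho -0.211, across genes, which are not independent replicates). With a length trend removed from each library the value was -0.31 (adjusted p = 0.0493). Kdr, the main VEGF receptor, was the next by p, at 33.8 CPM in controls and 26.4 CPM in knockouts (-0.37, SE 0.11, adjusted p = 0.0934), and the groups overlapped.

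Refed livers gave no call among the 33 genes with edgeR, DESeq2 or limma-voom, where edgeR called 0.0227% of all 13228 genes tested. The median of the 33 was 0.05 beside 0.01 over all genes. Before adjustment, edgeR's p was under 0.05 for 3 of the 33, beside 1024 of the 13228 genes. Those 3 were Ptprb, Mrc1 and Oit3. Ptprb was at 40.1, 44.2, 35.1 and 50.8 CPM in refed controls and 53.4, 75.8, 43.7 and 67.3 CPM in refed knockouts, opposite in direction to fasted livers and overlapping as groups (0.50, SE 0.17, adjusted p = 0.565). Libraries of the same letter deviated together in this table, and in all 4 letters the knockout was the higher; with the letter as a block the value was 0.49 (SE 0.10, adjusted p = 0.0934). Mrc1, the mannose receptor, was at 35.1 and 43.7 CPM (0.33, SE 0.12, adjusted p = 0.594). Oit3, a secreted sinusoidal protein, was at 15.9 and 19 CPM with no overlap (0.27, SE 0.10, adjusted p = 0.596).

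The difference of the Plvap effect between refed and fasted livers was tested directly over the 38 libraries. With edgeR no member was called, and neither was any gene (0% of 14234). Before adjustment, p was under 0.05 for 6 of the 33, beside 1192 of the 14234 genes. Ptprb had the smallest p of the 33, with a difference of 0.90 (SE 0.17, adjusted p = 0.0755). This value depended on the analysis: the adjusted p was 0.00638 with DESeq2, 0.0186 without the filter, 0.0228 with limma-voom and 0.00379 with the replicate letter as a block, but 0.22 in a fit of the compared groups alone. It was also called without fasted control F, refed control D or refed knockout A or C. The block covered every table of that fit, though the letters were taken to pair samples in refed livers only. Fold changes correlated with exon length in this contrast too (rho 0.332 across genes), and with the length trend removed the difference for Ptprb was 0.66 (adjusted p = 0.294). Fasted and refed libraries came from separate count tables.

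On western and high-fat diet none of the 33 genes passed edgeR's test for the Plvap knockout; DESeq2 gave 0 on both diets as well, and limma-voom 1 on western diet, Lyve1 (adjusted p = 0.0381), and 0 on high-fat diet. On western diet 0.0148% of 13533 genes were called, on high-fat diet 0.281%. Before adjustment, edgeR's p was under 0.05 for 6 of the 33 genes on western diet and for 2 on high-fat diet. Over the 13533 genes it was so for 1325 on western diet and 1873 on high-fat diet. After Lyve1, the smallest p on western diet belonged to Maf (51.7 CPM in controls, 64.7 in knockouts, 0.32, SE 0.12, adjusted p = 0.441) and Rspo3, the R-spondin of central vein endothelium (8.16 and 6.81 CPM, -0.27, SE 0.12, adjusted p = 0.463). On high-fat diet they belonged to Ptprb (48.1 and 41.7 CPM, -0.20, SE 0.10, adjusted p = 0.36) and Tie1 (9.14 and 11.5 CPM, 0.35, SE 0.19, adjusted p = 0.432). The median of the 33 was 0.12 on high-fat diet, beside 0.01 over all genes, with 23 of 33 above 0. By edgeR, DESeq2 or limma-voom, the Plvap effect passed no test of difference for any of the 33. This held between western and high-fat diet (0% of all genes called), between western diet and chow (0%) and between high-fat diet and chow (0%). Before adjustment, edgeR's p was under 0.05 for 0, 2 and 1 of the 33. Over all genes tested it was so for 1546 of 13533, 437 of 14234 and 1164 of 14234.

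**Figure D2:**
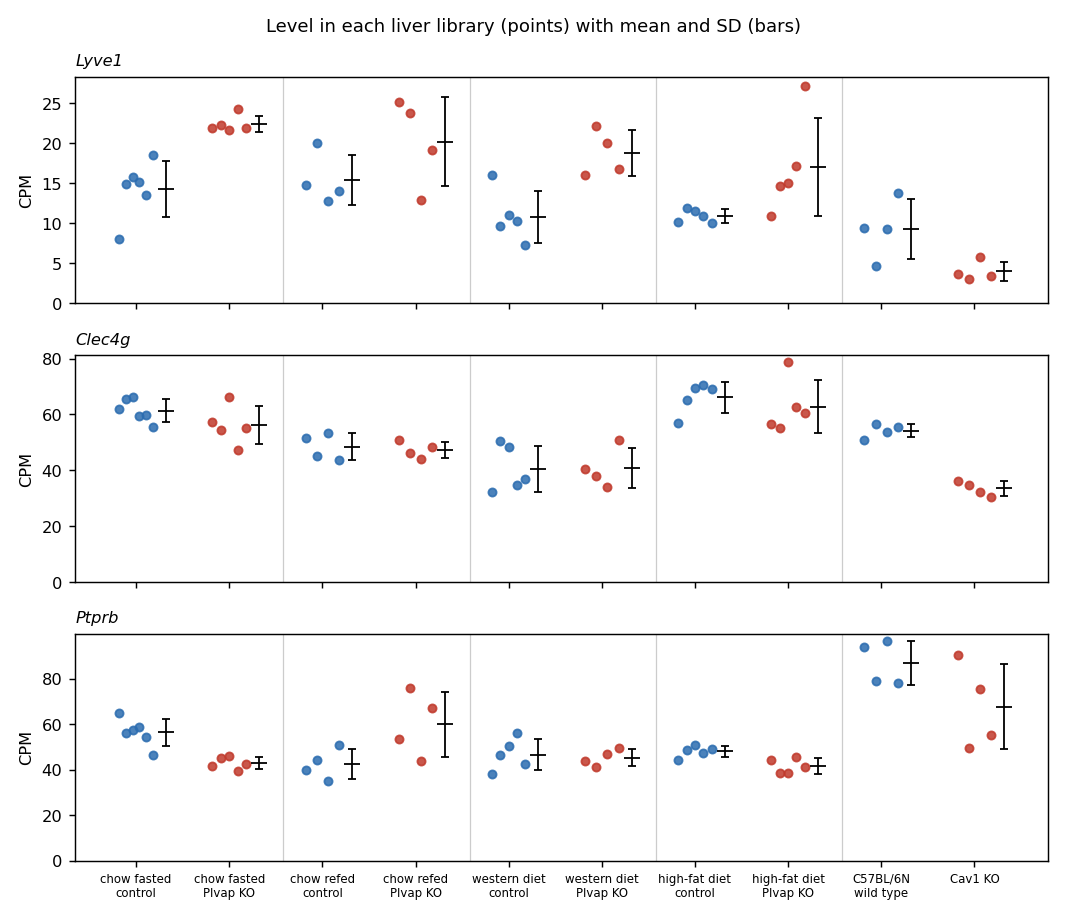
CPM of Lyve1, Clec4g and Ptprb in each of the 46 libraries by group (controls blue, knockouts red), with the mean and SD. Lyve1 lies above 21 CPM in all 5 fasted Plvap knockouts and below 6 CPM in all 4 Cav1 knockouts, where Clec4g lies between 30.6 and 36.3 CPM.

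In livers of Cav1 knockouts 1 of the 33 genes, the sinusoidal lectin Clec4g, fell. That is 3.03% of the 33, beside 4.68% of all 12978 genes tested. Of the 14 sinusoidal genes 11 had a log2 fold change below 0 with a median of -0.21, while the median over all genes was 0.02 and over the 33 genes -0.04. Clec4g was at 51.0, 56.6, 53.7 and 55.5 CPM in wild-type livers and at 36.3, 34.9, 32.3 and 30.6 CPM in knockouts, far apart and tight in both groups. It fell by 0.68 on the log2 scale (SE 0.09, adjusted p = 0.0011) and was called under each of 15 alternatives, at -0.75 to -0.64. Of 10 hepatocyte markers 3 rose in the same comparison (Apoa1 by 0.80, Alb by 0.53 and Fgb by 0.51), their summed level being 68300 to 79700 CPM in wild-type and 87200 to 115000 CPM in knockout livers; their part in the fall of Clec4g was not tested. Clec4g lies on chr8:3757064-3770651 (GRCm39, minus strand).

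The next members by p in Cav1 knockouts were 2 further sinusoidal genes, and they missed the threshold. Ehd3, a membrane trafficking ATPase of sinusoids, was at 61.4 ± 4.17 CPM in wild-type and 40.5 ± 10.8 CPM in knockout livers (SD, n = 4 and 4), without overlap (-0.58, SE 0.16, adjusted p = 0.067). Lyve1 was at 9.42, 4.67, 9.27 and 13.8 CPM in wild-type and 3.66, 3.11, 5.79 and 3.4 CPM in knockout livers, so that 1 wild-type library fell inside the knockout range (-1.21, SE 0.32, adjusted p = 0.0716). For Lyve1 the adjusted p was 0.00505 with DESeq2, 0.0437 with the replicate letter as a block and 0.161 with limma-voom. Ehd3 was called with DESeq2 (0.0179), without the filter (2.82e-05) and with the block (0.0411), but not with limma-voom (0.0533). Without wild-type library B or knockout C, Lyve1 joined Clec4g among the calls, as Ehd3 did without knockout A and Oit3 without knockout B. Oit3 followed at 23.3 and 16.3 CPM (-0.50, SE 0.14, adjusted p = 0.0745), and was called with DESeq2 (0.0322), without the filter (0.004) and with limma-voom (0.0413), but not with the block (0.0516). The letters were not taken to pair these mice, and the deviations of only 1 of 4 same-lettered pairs correlated over 0.1. Nos3 and Vwf, vascular genes for nitric oxide and clotting, were at 3.13 and 3.67 CPM and at 8.31 and 10.0 CPM, and neither passed. Fold changes in this comparison also correlated with exon length (rho -0.291 across genes), and the wild-type mice were of a named substrain that the knockouts were not.

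The balance between the sinusoidal and the vascular group was summarised for each library as the mean log2(CPM + 0.5) of the 14 sinusoidal genes minus that of the 16 vascular genes, as a description without a test. It was 1.47 in wild-type and 1.25 in Cav1 knockout livers, a difference of -0.22 without overlap and with a pooled SD of 0.06. Leaving out the 6 genes that other liver cells also express gave -0.39, and using medians in place of means gave -0.38. In the Plvap line, knockout minus control was 0.06 in fasted livers, 0.12 in refed livers, 0.15 on western diet and 0.03 on high-fat diet, with overlapping groups each time. With medians in place of means the western diet value was -0.09 and the high-fat diet value -0.08, so the sign there depended on the summary.

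**Figure D3:**
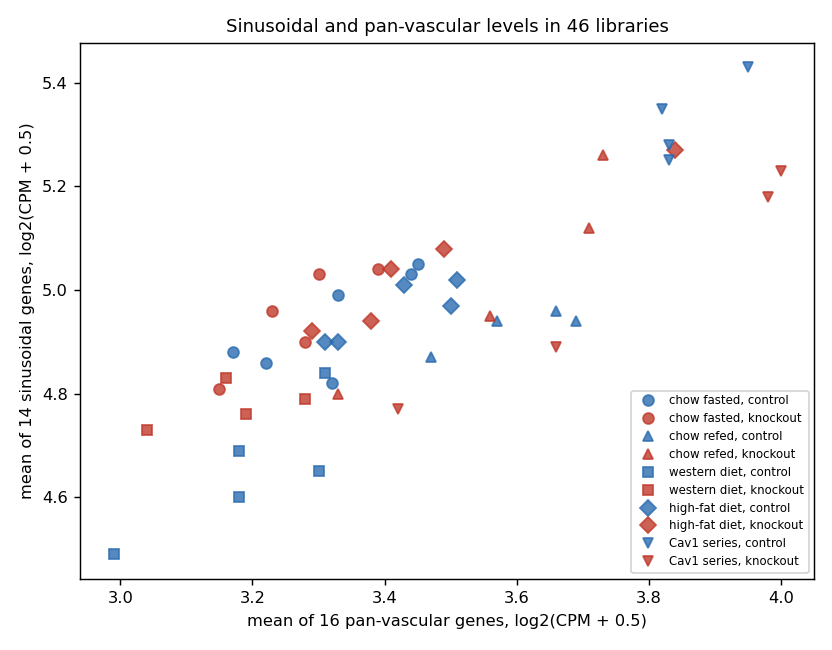
Mean log2(CPM + 0.5) of the 14 sinusoidal genes against that of the 16 vascular genes, 1 point per library, coloured by group. The Cav1 knockouts have a lower sinusoidal mean for their vascular mean than the wild-type livers (difference of balance -0.22).

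The diets were compared directly within 1 table, western minus high-fat. In controls 31 of 33 genes had a log2 fold change below 0, with a median of -0.25 beside 0.00 over all genes, though only 1 passed the test, Clec4g (3.03% of the 33, beside 2.09% of all genes). Clec4g was at 32.1, 50.4, 48.5, 34.6 and 36.9 CPM on western diet and 57.1, 65, 69.4, 70.6 and 69 CPM on high-fat diet, without overlap. The log2 fold change was -0.72 (SE 0.13, adjusted p = 0.00486). Fcgr2b, the inhibitory receptor that clears immune complexes, was at 33.4 and 44.2 CPM (-0.42, SE 0.11, adjusted p = 0.0529) and Aqp1 at 62.4 and 84.7 CPM (-0.45, SE 0.12, adjusted p = 0.0623). Aqp1 was called without western diet control C and Fcgr2b without control D.

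Plvap knockouts gave the same contrast with 9 genes lower and none higher on western diet (27.3% of the 33, beside 8.45% of all genes; median -0.35 beside -0.04). Of the scavenger receptors Stab1 (30.8 CPM on high-fat and 18.9 on western diet, -0.73, SE 0.17) and Clec4g (62.7 and 40.9 CPM, -0.63, SE 0.14) fell. Of the other sinusoidal genes Dnase1l3, a secreted DNase (32.3 and 23.2 CPM, -0.49), Ehd3 (42.1 and 28.4 CPM, -0.58) and Oit3 (19.8 and 14.7 CPM, -0.44) fell. The receptors Flt4 (-0.97, SE 0.27), Kdr (-0.49, SE 0.11) and Tie1 (-0.72), an angiopoietin co-receptor, and the synthase Nos3 (-0.78) made up the rest, with adjusted p from 0.0123 for Dnase1l3 to 0.0495 for Nos3. No secreted signal, junction gene or transcription factor was called. Of 20 stellate cell markers 3 fell in the same comparison and none rose (Vipr1 by 0.83, Sod3 by 0.86 and Ecm1 by 0.70; median of the list -0.33). Their summed level was 513 to 670 CPM on high-fat and 475 to 580 CPM on western diet with no marker at 0, and their part in the result was not tested. High-fat diet knockout E stood out: it had 28.8 CPM of Flt4 against 9.21 to 13.2 CPM in the other 4, 43.2 CPM of Stab1 against 27.2 to 28.4, and the highest level in its group for 18 of the 33 genes. Without it 5 genes were called, as without western diet knockout A, B or D, and leaving out western diet knockout C left 3; over all libraries left out in turn the count ranged from 3 to 13. Without knockout E Flt4 was -0.52 (adjusted p = 0.0935), Tie1 -0.48 (0.129), Oit3 -0.31 (0.106) and Nos3 -0.67 (0.137), each with edgeR's test. For Clec4g, leaving out western diet knockout C gave -0.56 (adjusted p = 0.0551). Leaving out single western diet knockouts also ended calls: any of A to D for Oit3, Flt4 and Nos3, A, C or D for Tie1, and B or C for Ehd3. High-fat diet knockout A did so for Flt4 and Nos3 and knockout D for Nos3. Over all these the adjusted p stayed between 0.052 and 0.141.

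Comparison of diet with chow spans separate count tables, so the table and the diet cannot be told apart. In controls, 4 genes were lower on western diet than on chow and none higher (12.1% of the 33, beside 1.81% of all genes), and 28 of 33 lay below 0 with a median of -0.17. Clec4g fell from 61.4 ± 4.14 CPM (SD, n = 6) on chow to 40.5 ± 8.37 CPM (SD, n = 5), a log2 fold change of -0.59 (SE 0.11, adjusted p = 0.00184). Aqp1 fell from 91.8 to 62.4 CPM (-0.55, SE 0.12, adjusted p = 0.00659), Dnase1l3 from 31.4 to 23.1 (-0.43, SE 0.10, adjusted p = 0.013) and Fcgr2b from 44.2 to 33.4 (-0.40, SE 0.10, adjusted p = 0.0201). Only Clec4g was called when these 2 groups were fitted alone. The call for Fcgr2b was lost without fasted control B or D or western diet control A or E (adjusted p 0.0559 to 0.0866). In Plvap knockouts Clec4g alone was called (2.27% of all genes; 56.1 and 40.9 CPM, -0.45, SE 0.12, adjusted p = 0.0453), and it lost the call under 11 of 18 alternatives, among them leaving out any of fasted knockouts A, B, C and E and western diet knockouts A, B and C, with -0.36 to -0.46 and adjusted p of 0.0727 to 0.182.

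High-fat diet against chow went upward where it was called. In controls Stab2, the hyaluronan scavenger receptor, rose from 29.9 to 39.2 CPM (0.40, SE 0.13, adjusted p = 0.0437; 3.03% of the 33, beside 8.46% of all genes). That call was lost without any one of 9 libraries (fasted controls B to F, high-fat diet controls A to D), with adjusted p from 0.0579 to 0.132. In knockouts 4 genes rose (12.1%, beside 15.4% of all genes): Kdr from 26.4 to 36.4 CPM (0.48, adjusted p = 0.00314), Tie1 from 7.18 to 11.5 (0.70, adjusted p = 0.0104), Stab1 from 22.2 to 30.8 (0.49, adjusted p = 0.0192) and Sox18, a vessel transcription factor (0.71, adjusted p = 0.0226). Leaving out fasted knockout D left 2 of them called, Kdr and Tie1; leaving out high-fat diet knockout E left Kdr, with Lyve1 called beside it; and leaving out high-fat diet knockout B gave 7 calls. Stab1 was lost without fasted knockout D (adjusted p = 0.0846) or high-fat diet knockout E (0.118), Tie1 without the latter (0.0778), and Sox18 without fasted knockout C or D or high-fat diet knockout C or E (0.0506 to 0.102).

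**Figure D4:**
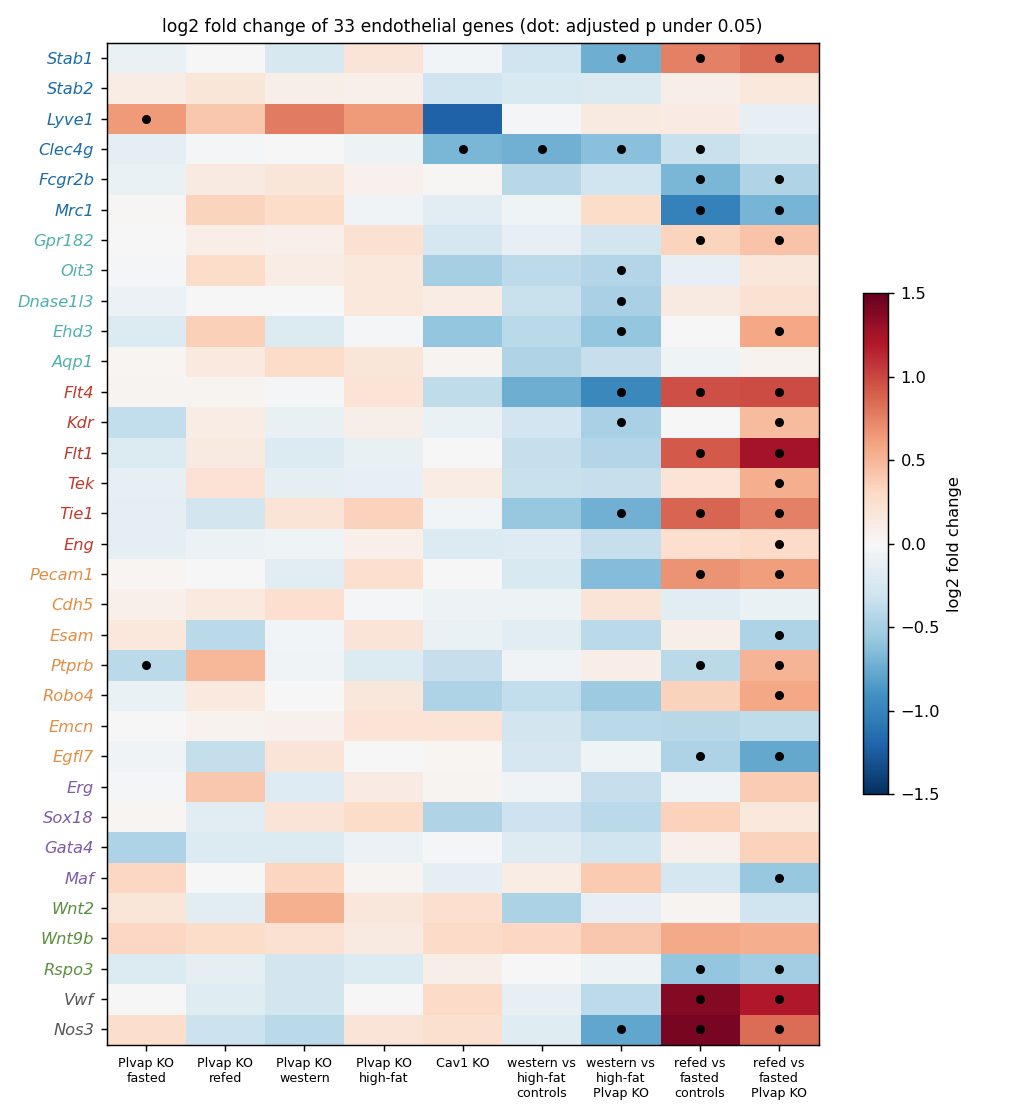
Log2 fold change of each of the 33 genes in 9 comparisons (colour), with a dot where the adjusted p was under 0.05; gene names are coloured by role as in the plot of levels. The columns of refed against fasted livers hold 14 and 20 dots, and the columns of the Plvap knockout hold 2, in fasted livers.

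Refed and fasted livers differed in many of the 33 genes, as they did in many genes of the whole table; state and count table cannot be told apart here. In controls 8 genes were higher and 6 lower after refeeding (42.4% of the 33, beside 46.9% of all 14234 genes), and in Plvap knockouts 14 were higher and 6 lower (60.6%, beside 47.2%). The medians were 0.09 and 0.29, beside 0.01 and 0.00 over all genes. The 8 genes Flt1, Flt4, Gpr182, Nos3, Pecam1, Stab1, Tie1 and Vwf rose in both genotypes and Egfl7, Fcgr2b, Mrc1 and Rspo3 fell in both, while Ptprb fell in controls and rose in knockouts.

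In controls the genes of vessel tone and clotting, Nos3 and Vwf, rose most among the 33. Vwf was at 3.01, 3.62 and 4.04 CPM (lowest, median and highest) in the 6 fasted controls and 9.59, 9.31, 8.51 and 9.37 CPM in refed controls, a wide gap (1.38, SE 0.16, adjusted p = 1.45e-08), and its rise in knockouts was 1.20. Nos3 rose from 2.17 ± 0.492 to 5.75 ± 0.725 CPM (SD, n = 6 and 4) in controls (1.42, SE 0.19, adjusted p = 1.06e-07) and by 0.84 in knockouts. Of the 6 growth factor receptors 3 rose in controls and 6 in knockouts, where 46.9% and 47.2% of all genes were called. Flt1 was at 3.98, 5.7 and 7.32 CPM in fasted and 9.5, 11.2, 9.71 and 12.5 CPM in refed controls, again without overlap (0.92, SE 0.17, adjusted p = 2.57e-05), and rose by 1.25 in knockouts. Flt4 rose by 0.97 and 0.98 and Tie1 by 0.87 and 0.75 in controls and knockouts. Kdr (0.47), Tek (0.55) and Eng (0.29) were called in knockouts alone, and with edgeR none of the 33 passed the test of a difference between genotypes.

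The scavenger receptors split. Mrc1 was at 57.7, 68.6 and 95.6 CPM (lowest, median and highest) in fasted and 32.4, 34.0, 38.7 and 35.3 CPM in refed controls, without overlap (-1.01, SE 0.12, adjusted p = 3.33e-08), and fell by 0.70 in knockouts. Fcgr2b fell from 44.2 to 27.3 CPM in controls (-0.69, SE 0.11, adjusted p = 1.6e-06) and by 0.45 in knockouts, and Clec4g by 0.33 in controls (adjusted p = 0.0211). The call for Clec4g was lost without refed control B (-0.31, adjusted p = 0.0536) or D (-0.30, adjusted p = 0.0593). Stab1, by contrast, rose by 0.76 and 0.84. Mrc1 and Fcgr2b are also made by Kupffer cells. In controls 9 of the 18 Kupffer cell markers fell and none rose (median -0.59), where 46.9% of all genes were called. Clec4f among them fell from 228 to 101 CPM (-1.15, SE 0.19, adjusted p = 6.27e-06). In knockouts 9 fell and 1 rose (median -0.50), where 47.2% of all genes were called. The summed level of the 18 markers was 1110 to 1450 CPM in fasted and 659 to 952 CPM in refed controls, and 1350 to 1690 and 724 to 917 CPM in knockouts, with no marker at 0, and the part of this in the fall of Mrc1 and Fcgr2b was not tested.

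**Figure D5:**
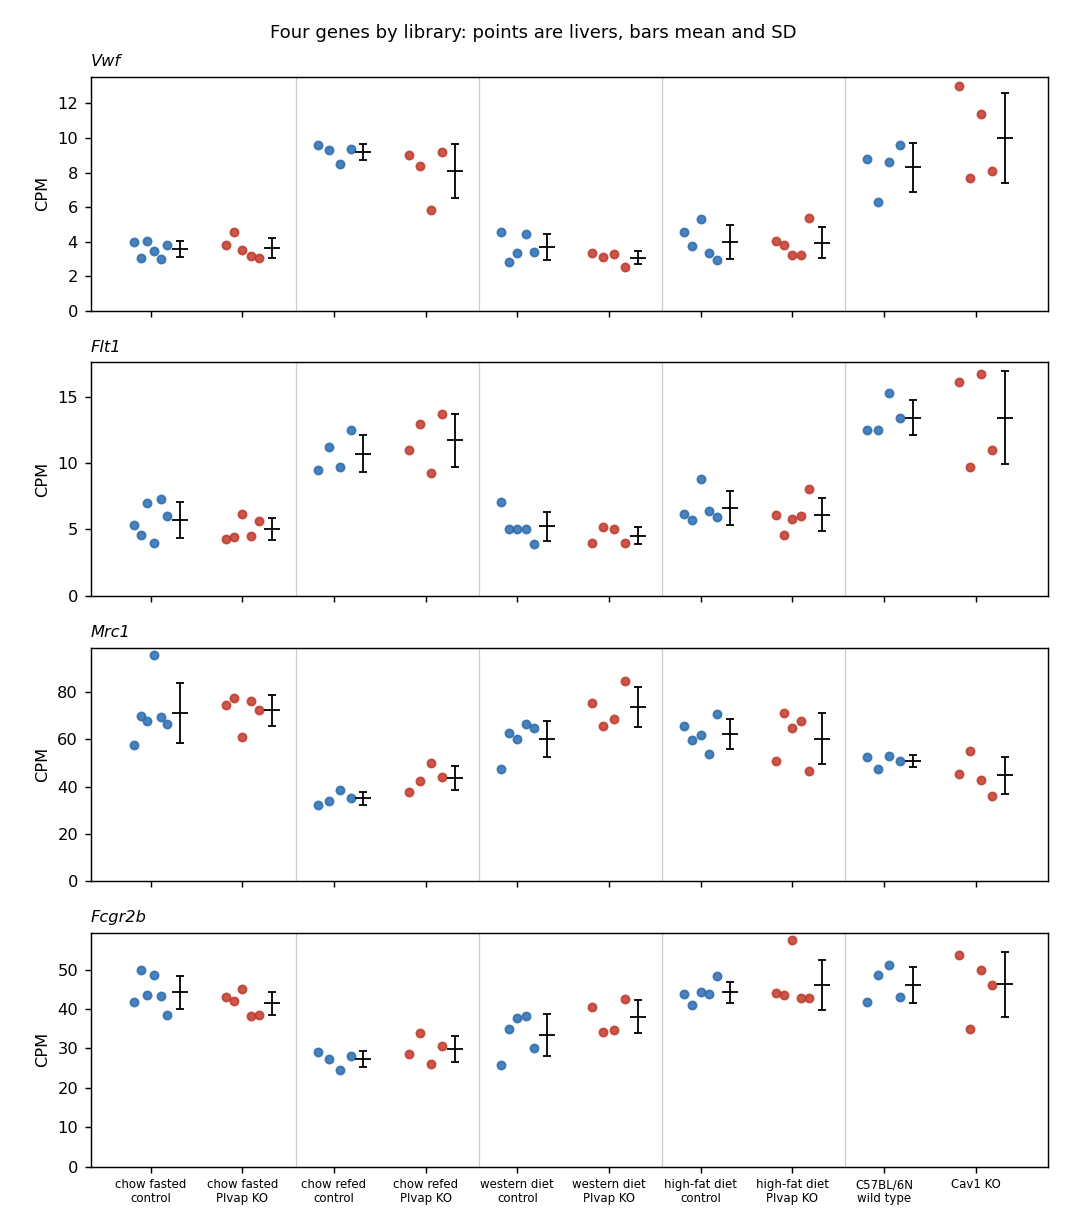
CPM of Vwf, Flt1, Mrc1 and Fcgr2b in each of the 46 libraries by group (points, with mean and SD). In the Plvap line on chow, Vwf and Flt1 lie higher, and Mrc1 and Fcgr2b lower, in refed than in fasted libraries of both genotypes.

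Among junction and surface genes, Pecam1, an adhesion molecule between endothelial cells, rose by 0.67 in controls and 0.63 in knockouts, and Egfl7 fell by 0.46 and 0.77. Ptprb fell by 0.40 in controls and rose by 0.51 in knockouts, its libraries being listed with the knockout comparisons, and the rise was 0.23 (adjusted p = 0.0563) with the length trend removed. Robo4, a vascular guidance receptor (0.58), rose and Esam (-0.46) fell in knockouts alone. Of the remaining genes, Gpr182 rose in both genotypes (0.33 and 0.43), Ehd3 rose in knockouts (0.58), Maf, also made by Kupffer cells, fell in knockouts (-0.57), and Rspo3 fell from 8.75 to 5.79 CPM in controls (-0.58) and by 0.52 in knockouts. Wnt2 and Wnt9b, the WNT ligands of the central vein, were not called in either genotype. Several small calls rested on few libraries: Gpr182 in controls was lost without any of fasted controls A, B, D and F and refed controls B, C and D (adjusted p 0.0655 to 0.129), and Egfl7 in controls without fasted control B or refed controls B, C and D (0.0575 to 0.0877). In knockouts Gpr182 was lost without fasted knockout D or refed knockout B (0.0543 and 0.0684), Eng without fasted knockouts A, B, D and E or refed knockouts A and B (0.0537 to 0.209), and Esam without fasted knockouts A and C or refed knockouts B, C and D (0.0573 to 0.153). The balance of sinusoidal to vascular genes was lower in refed livers, by -0.29 in controls and -0.23 in knockouts without overlap, and by -0.14 and -0.08 without the 6 genes that other cells express.

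Other genes of the same pathways were read from lists of companions, here for fasted Plvap knockouts, where 2.25% of all genes were called. Of 25 other endothelial surface and junction genes, fasted Plvap knockouts had 1 higher, Gpihbp1, which carries lipoprotein lipase across capillaries (18.2 to 25.5 CPM, 0.48, SE 0.11, adjusted p = 0.0296), and 1 lower, Plvap itself. Of 15 genes of activated and large-vessel endothelium Esm1, a VEGF-induced proteoglycan, rose from 0.734 to 2.06 CPM (1.47, SE 0.30, adjusted p = 0.0193). None of 18 endothelial transcription factors, 10 VEGF and angiopoietin genes and 10 Notch genes was called. Of 20 hepatocyte genes that depend on endothelial WNT signals, Oat fell by 0.64.

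The list of BMP and ALK1 pathway genes holds Bmp6, whose product sinusoidal cells release to make hepatocytes produce hepcidin. Genes of other BMP ligands, of receptors, of SMAD proteins and of targets such as Id2 are in it too. It shares Id3 with the list of Kupffer cell markers. The BMP and ALK1 list had 4 of 16 genes lower and none higher in the mean of the 4 Plvap states, with a median of -0.14. Over all genes 5.58% were called and the median was 0.00. A link between Bmp6 and the other genes of the list was not tested. Hamp, which encodes hepcidin, fell by 1.30 (SE 0.33, adjusted p = 0.0164), Id3 by 0.80 (SE 0.23, adjusted p = 0.035), Bmp6 by 0.40 (SE 0.12, adjusted p = 0.0385) and the inhibitor Smad7 by 0.38 (SE 0.12, adjusted p = 0.0498). With limma-voom only Hamp was called, and the adjusted p was 0.148 for Id3, 0.0889 for Bmp6 and 0.105 for Smad7. In fasted livers alone Bmp6 fell from 6.98 to 4.21 CPM (-0.74, SE 0.18, adjusted p = 0.0402). Controls on western diet had 2.62 CPM of Bmp6 beside 6.98 CPM on chow (-1.40, SE 0.23, adjusted p = 0.000306).

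In Cav1 knockouts, where 4.68% of all genes were called, the list of other endothelial genes gave 1 higher and 1 lower, the latter Cav1 itself. Cd34, a sialomucin that sinusoids largely lack, rose from 0.754 to 2.12 CPM (1.5, SE 0.33, adjusted p = 0.0268), the Notch ligand Jag1 fell by 0.74, the BMP target Id2 rose by 0.92 and, among WNT-dependent genes, Slc1a2 fell by 0.49. Between western and high-fat diet, 8.45% of all genes were called in Plvap knockouts. There 3 of 25 other endothelial genes were lower on western diet (Shank3 -0.87, Ushbp1 -0.60 and F8, coagulation factor VIII, -0.53). Of 18 transcription factors 2 were higher (Fli1 0.84 and Nr2f2 0.46). Refed against fasted controls, where 46.9% of all genes were called, 7 of the 25 other endothelial genes rose and 6 fell, a share near that of all genes. Podxl rose by 1.18, and Clec14a (-1.32), Clec1b (-1.40) and Cavin2 (-1.23) fell. The flow-responsive factor Klf2 fell by 0.81, Bmpr2 by 1.65, and the basement membrane collagens Col4a2 and Col4a1 rose by 1.53 and 1.09. Of 10 VEGF and angiopoietin genes 4 rose, including Vegfa (0.39) and its co-receptor Nrp1 (0.78), and Angpt1 fell by 1.60. Of 12 Notch genes 3 rose (Notch1, Notch2 and Notch4) and 1 fell. Both counts stand beside the same 46.9% of all genes. Of the 20 WNT-dependent hepatocyte genes 6 rose and 2 fell, beside 46.9% of all genes called, with Glul at 826 and 1130 CPM (0.47).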

How the data were processed

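RNA of 46 snap-frozen livers was sequenced, and the deposited files are 4 tables of raw counts per gene with coordinates (GRCm39) and exon length, the latter also deposited by the authors. The authors aligned reads with STAR 2.7.8a and counted them with featureCounts 2.0, after FastQC 0.11.9 and MultiQC 1.10.1, per the submitters' processing notes; how strand was set is not given in the sources used here. Columns were mapped to samples by title, with 0 value columns unmapped, and 52083 of 55416 identifiers had a symbol in the gene tables used; those without one took 0.764% of counts and stayed in the fits. Groups are those of the labels; no pair of the 85 within a group held identical values.

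Each comparison was fitted across all genes with edgeR 4.0.16 (R 4.3.3): filterByExpr with a minimum count of 10 and total of 15, TMM scaling, quasi-likelihood test, Benjamini-Hochberg adjustment, threshold 0.05. Comparisons within a table used that table; those across states joined the 3 tables of the Plvap line (38 libraries). CPM values used TMM over all 46 libraries and 14463 genes; log values add 0.5. The scripts were tested on simulated counts. The 33 genes, their roles and the companion lists were chosen with earlier results of these data known. Genes named are those called in any comparison, the highest and lowest per role, the 3 of smallest p per knockout comparison, and up to 4 called genes per list; genes outside that rule were chosen after their values were seen. Alternatives were DESeq2 1.42.0, limma-voom (limma 3.58.1), size factors, filters, a replicate block, fits of the compared groups, leaving out each library and, added after seeing the data, removing a trend on exon length (lowess span 0.3) and leaving out mitochondrial genes with genes at 0 in a whole table. Libraries with the same letter deviated together in refed livers (correlations 0.2075 to 0.249, 4 of 4 pairs over 0.1). The letters were taken to pair the samples there and not in the other tables, but the labels do not state what the letters mark. The main fits used no pairing in any table.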

Additional observations from a re-analysis of the deposited data

Results flagged for a closer look

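Over the 330 sets of 1 gene in 1 group, 20 held a library whose gap to the nearest other library exceeded Dixon's 95% critical value, where chance gives about 1 in 20, or 16.5. High-fat diet Plvap knockout E was high for Stab1 (43.2 CPM, others 27.2 to 28.4), Stab2 (55.1, others 36.2 to 40.7), Flt4 (28.8, others 9.21 to 13.2) and Esam (17.1, others 8.95 to 10.4), and knockout C of that group for Fcgr2b (57.6, others 42.7 to 44.1). High-fat diet control D, the library of lowest total, was high for Flt4 (16.9 CPM, others 11.4 to 12.0), Wnt2 (7.57, others 5.75 to 6.26) and Wnt9b (1.6, others 0.655 to 0.888), and control C for Flt1 (8.82, others 5.75 to 6.4).

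In fasted livers, Plvap knockout D was high for Lyve1 (24.3 CPM, others 21.7 to 22.3), control D for Mrc1 (95.6, others 57.7 to 69.7), and control B for Ehd3 (47.3, others 42.3 to 43.9) and Sox18 (6.4, others 3.17 to 4.1). In refed livers, Plvap knockout C was low for Cdh5 (14.9 CPM, others 19.5 to 20.2) and high for Rspo3 (6.43, others 4.62 to 4.89), and control A was high for Egfl7 (34.9, others 18.2 to 21.1). On western diet, Plvap knockout D was high for Kdr (29.2 CPM, others 24.8 to 25.5), control E low for Egfl7 (22.5, others 30.5 to 31.8) and control A low for Wnt2 (1.55, others 4.84 to 5.9). Cav1 knockout B was low for Sox18 (2.91 CPM, others 4.6 to 4.94).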

How the results depend on the processing

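Over 58 named results of single genes, 1088 alternative values were computed; 130 lost the call, 0 reversed and the rest kept direction and side of the threshold, and 35 of the 58 were called under every alternative run. Counts of the 33 genes called moved as follows. Plvap knockout, fasted (2): 4 without the filter, 0 to 2 with 1 library left out. Cav1 knockout (1): 4 with DESeq2, 6 without the filter, 2 with limma-voom, 3 with the replicate block, 1 to 2 with 1 library left out. Plvap knockout on western diet (0): 1 with limma-voom. Western against high-fat diet: controls (1) 4 with DESeq2, 4 with limma-voom, 2 in the compared groups alone, 1 to 2 with 1 library left out; knockouts (9) 5 with the replicate block, 5 in the compared groups alone, 3 to 13 with 1 library left out. Mean of 4 states (1): 2 with limma-voom, 2 with the length trend removed, 1 to 2 with 1 library left out. Plvap effect, refed minus fasted (0): 1 with each of DESeq2, no filter, limma-voom and the replicate block, 0 to 1 with 1 library left out. Western diet against chow: controls (4) 1 in the compared groups alone; knockouts (1) 4 with limma-voom, 0 without the filter, with the block, in the compared groups alone or with the length trend removed, 0 to 1 with 1 library left out. High-fat diet against chow: controls (1) 0 without the filter, 2 with the length trend removed, 0 to 1 with 1 library left out; knockouts (4) 2 to 7. Over the counts of refed against fasted livers every alternative stayed within 1.5 times.

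The balance of sinusoidal to vascular genes moved by more than 1 SD with class medians for Plvap knockout on western diet (-0.09) and high-fat diet (-0.08), Cav1 knockout (-0.38), western against high-fat diet in controls (0.06) and refed against fasted knockouts (-0.34), and without the 6 genes of other cells for Cav1 knockout (-0.39), western against high-fat diet in knockouts (-0.07) and refed against fasted controls (-0.14) and knockouts (-0.08). The causes of these moves were not tested. The replicate block changed no count in refed livers (0 called in either fit). Same-lettered libraries deviated together there, but the labels do not say that letters pair the samples. Elsewhere correlations of same-lettered samples were more uneven (-0.0157 to 0.275 fasted, -0.0161 to 0.186 Cav1, -0.2111 to 0.097 western diet, -0.1289 to 0.140 high-fat diet). In those tables the block gave 3 calls in fasted livers and 3 in Cav1 knockouts. Depth limits Wnt9b, Emcn, Nos3 and Erg most, with as few as 8, 22, 12 and 22 counts in a library.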
